A study of Rattus norvegicus with 12 samples.

Results

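The genes described here encode the motor proteins of microtubule transport in rat dorsal root ganglia: kinesin heavy chains, kinesin light chains, cytoplasmic dynein chains and dynactin subunits. They were chosen by name. This covered every gene on the array called Kif followed by a digit or the letter c, Klc1 to Klc4, Dync, Dynl or Dctn. No measured value decided membership, but the set was chosen with earlier results of these data known. The rule took 57 of the 35287 gene names on the array. Of these, 53 had a probe that cleared background on each of the 3 arrays of some time and were among the 29623 genes tested, and 48 cleared it on all 12 arrays. The other 4 were not tested: Kif12 was above background on 2 of the 9 h arrays only, and Kif14, Kif24 and Kif2b on none. No probe named Kif1a, the gene of the main synaptic vesicle precursor motor, was found, and it is not analysed here.

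The tissue was the L4-6 dorsal root ganglia of male Sprague-Dawley rats of 180 to 220 g, taken 0.5, 3, 6 or 9 h after a 1 cm segment of the left sciatic nerve had been cut out under anaesthesia. All 24 rats, 6 per time, had this operation, and no uninjured group is labelled, so each later time was set against 0.5 h. There were 3 arrays per time, and the labels do not tie rats to arrays, so p-values measure only the spread between these samples, which may be technical. A ganglion is a mixture of neurons, satellite glia, Schwann cells and other cells, and in such bulk RNA fewer cells of a type and less RNA per cell cannot be told apart.

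Kinesins are motors that use ATP to walk along microtubules, most of them toward the plus end, which in an axon points away from the cell body. Cytoplasmic dynein, with its activator dynactin, walks the other way and carries endosomes, mitochondria and injury signals back to the cell body. After a nerve is cut, sensory neurons depend on both directions: on dynein for signals from the injured axon and on kinesins for supplies to its regrowing tip. A further set of kinesins works in the spindle of dividing cells, and another in cilia.

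Levels are log2 intensities relative to the 75th percentile of each array, so that 0 is that percentile, and they are compared only within a probe, since probes differ in brightness for the same amount of RNA. All 17 sensory neuron markers were above background on all 12 arrays, and their mean level stayed between -0.17 and 0.12 log2 units around its average. Muscle markers varied most from array to array, between -1.48 and 2.04, and all 11 measured of 12 listed were above background on every array. The scanner's local background had a median of 64 to 86 units at 0.5 h and 37 to 45 later, and 63.2 to 67.5% of probes were above background at 0.5 h and 82.3 to 85.3% at the later times. For motor gene probes these shares were 82.7 to 85.2% at 0.5 h and 91.4 to 93.8% later. The 0.5, 3 and 9 h arrays each lay on 1 slide, so slide and time cannot be told apart. The 0.5 h arrays were scanned on a day of their own, as were the 9 h arrays, so scan day and time cannot be told apart either, except between 3 and 6 h, whose arrays shared a day.

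Few of the motor genes were called. A moderated F test over the 4 times (limma, adjusted p under 0.05) called 12 of 53 (22.6%), against 43.6% of all genes tested. Among genes above background on all 12 arrays the shares were 10 of 48 motor genes (20.8%) and 41.6% of all genes. Set against 0.5 h, 5 of 53 motor genes were called at 3 h (9.43%, against 22.7% of all genes), 2 higher and 3 lower, where 9.69% of all genes were higher and 13% lower. The 6 h arrays gave 4 (7.55%, against 13.4%), 2 each way, where 4.07% of all genes were higher and 9.31% lower. By 9 h there were 8 (15.1%, against 33.4%), 4 each way, where 22.7% of all genes were higher and 10.7% lower. Between 3 and 6 h 1 was called, higher at 6 h (1.89%, against 10.4% of all genes), where 5.93% of all genes were higher and 4.45% lower. Between 6 and 9 h 8 were called (15.1%, against 25.1%), 6 higher and 2 lower at 9 h, where 19.2% of all genes were higher and 5.93% lower. In each of the 5 comparisons the share of motor genes called was below that of all genes, which is a description and was not tested. The 26 calls belong to 16 genes. Kif6 and Kif4b, called at 9 h against 0.5 h, did not clear background on any 0.5 h array. Kif6 was tested only because it cleared background on all 3 of the 9 h arrays, the time of its calls. Among genes above background on all 12 arrays 6 of 48 motor genes were called at 9 h (12.5%, against 30% of all such genes).

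**Figure D1:**
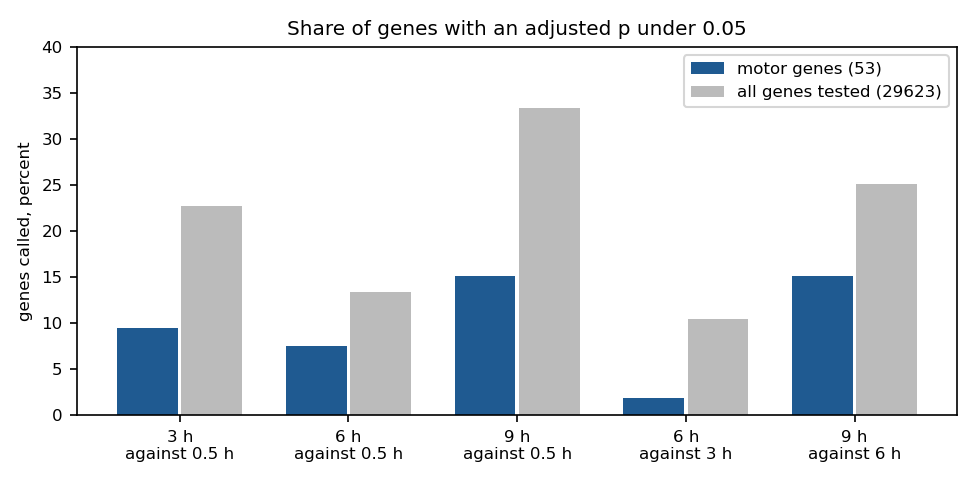
Percent of genes called (limma, adjusted p under 0.05) in each of the 5 comparisons, for the 53 motor genes tested and for all 29623 genes tested. The motor gene bar is the lower of the pair in every comparison, from 1.89% between 3 and 6 h to 15.1% at 9 h.

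Against 0.5 h the differences of the motor genes were also smaller at the median. The median absolute difference of the motor genes was 0.14 log2 units at 3 h, 0.12 at 6 h and 0.14 at 9 h against 0.5 h, while that of all genes was 0.20, 0.17 and 0.24. A difference beyond 0.5 log2 units was seen in 0 motor genes at 3 h, where 17.1% of all genes had one. At 9 h 5 motor genes had one (9.43%, against 25.6% of all genes), but Kif6, Kif4b and Kif21b cleared background on 0 of the 0.5 h arrays and Kif2c on 1. Among genes above background on all 12 arrays 1 of 48 motor genes had one (2.08%, against 12.9%), and that was Kif19a. In these genes the median at 9 h against 6 h was 0.154 for motor genes and 0.151 for all genes, so not smaller. The motor genes also had smaller standard errors than all genes, with a median of 0.09 against 0.11 log2 units. Among genes above background on all 12 arrays the medians were closer, 0.087 for motor genes and 0.093 for all such genes. Their median signed difference was 0.05, 0.00 and 0.08 at the 3 times, and that of all genes 0.02, -0.04 and 0.10. The arrays of the compared times did not overlap in 17 motor genes at 3 h (32.1%, against 40.7% of all genes) and in 21 at 6 h (39.6%, against 37.1%) and at 9 h (39.6%, against 48.7%), all relative to 0.5 h. Between 3 and 6 h 13 did not overlap (24.5%, against 35% of all genes), and between 6 and 9 h 24 (45.3%, against 44.3%).

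**Figure D2:**
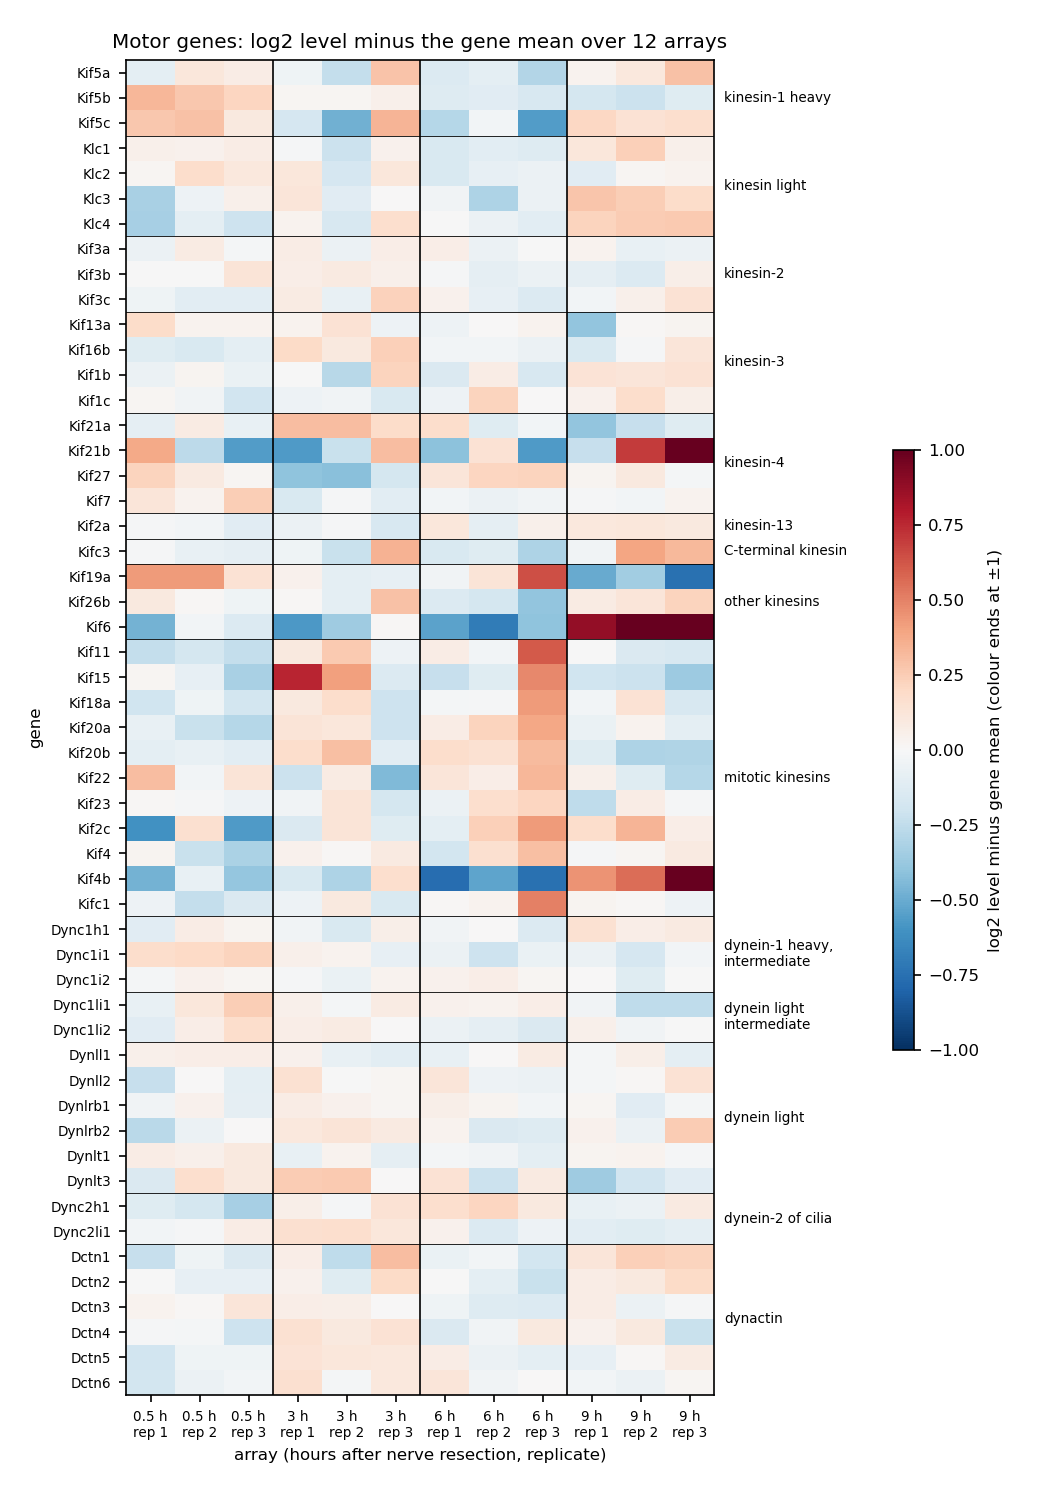
Log2 level of each of the 53 motor genes on the 12 arrays, minus the gene's own mean over them, with genes grouped by role and arrays by hours after resection. Colours end at 1 unit either way, and most cells are pale. Strong colours include those of Kif6 and Kif4b at 9 h, Kif21b on 9 h replicates 2 and 3, Kif19a, and Kif15 on 3 h replicate 1.

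Most of these calls depend on which form of the signal is used. With normexp background correction of the mean spot signal in place of the scanner software's processed signal, 1 of the 26 calls was still made. It was that of Kif16b at 3 h, although all 26 kept their direction. This setting replaced the processed signal as a whole, so the part played by background removal was not tested. Sizes varied: Kif5b then fell by 0.52 at 9 h (adjusted p = 0.119) and Dync2h1 differed by 0.55 at 6 h (adjusted p = 0.87), both more than with the processed signal, while Dync1li1 differed by -0.03 at 9 h. Calls over all genes were then 685, 1 and 425 at 3, 6 and 9 h against 0.5 h, 318 between 3 and 6 h and 163 between 6 and 9 h. The values below come from the scanner software's processed signal. Each gene is read from its brightest kept probe, and 19 genes had 22 further kept probes. Of these, 10 probes of 9 genes were called 16 times where the brightest was not, 3 of the 10 with the opposite sign in a call. The genes were Kif5b, Kif3b, Kif1b, Kif13a, Kif27, Kifc3, Kif18a, Dynlt3 and Dctn3, and the counts above leave these calls out.

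Kinesin-1, the main motor of fast axonal transport, pairs heavy chains with light chains that bind cargo. Of its 3 heavy chain genes, Kif5b, which is expressed in most cell types, fell at each later time, whereas the neuronal Kif5a and Kif5c were not called in any comparison. Kif5b is covered by 3 probes along its transcript, all on chromosome 17, plus strand, in the files' rn4 coordinates. They are shown because they gave different sizes for the same decline. The 5′-most, brightest and therefore reported probe (chr17:59711319-59711660) and the middle one (chr17:59721370-59722375) each span more genomic bases than their own length, so they cross exon junctions, while the 3′-most (chr17:59726315-59726374) covers an unbroken stretch.
Kif5b 5′-most probe: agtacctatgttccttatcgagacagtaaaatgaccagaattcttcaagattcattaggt
Kif5b middle probe: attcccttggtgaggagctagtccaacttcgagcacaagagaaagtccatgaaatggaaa
Kif5b 3′-most probe: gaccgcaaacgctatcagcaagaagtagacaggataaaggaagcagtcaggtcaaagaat

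On the brightest probe Kif5b stood at 6.38, 6.31 and 6.25 on the 0.5 h arrays, 6.06, 6.06 and 6.09 at 3 h, 5.92, 5.93 and 5.89 at 6 h, and 5.87, 5.83 and 5.92 at 9 h. All 9 later arrays lie below all 3 of the 0.5 h arrays, and the 6 h and 9 h arrays lie below those of 3 h. The level fell by 0.24 (SE 0.05, adjusted p = 0.0097) at 3 h, by 0.40 (SE 0.05, adjusted p = 0.00251) at 6 h and by 0.44 (SE 0.05, 95% interval -0.56 to -0.32, adjusted p = 0.000349) at 9 h, all relative to 0.5 h. The 9 h difference is a ratio of 0.737 to 0.5 h. No array decided these 3 calls: each was made whichever of the 12 was left out. The difference of 6 h from 3 h on the same probe was -0.16 and did not pass (adjusted p = 0.0836).

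The middle probe gave 0.79, 0.86 and 0.74 at 9 h, against 1.24, 1.102 and 1.14 at 0.5 h, again without overlap. It fell by 0.36 (adjusted p = 0.00198) at 9 h and by 0.25 (adjusted p = 0.0261) at 6 h against 0.5 h. At 3 h, however, it differed by only -0.01 (SE 0.06). From 3 to 6 h the middle probe fell by 0.24 (adjusted p = 0.0336), a call the brightest probe did not make. The 3′-most probe showed -0.05, -0.19 and -0.19 at 3, 6 and 9 h, with adjusted p from 0.0721 to 0.653. The decline of Kif5b at 6 and 9 h therefore appeared on the first 2 probes and with the same sign on the third, while the 3 h call rests on the brightest probe alone. With the mean of the 3 probes, the 3 h difference had an adjusted p of 0.22, and with only the 0.5 and 3 h arrays in the fit it had 0.0596.

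**Figure D3:**
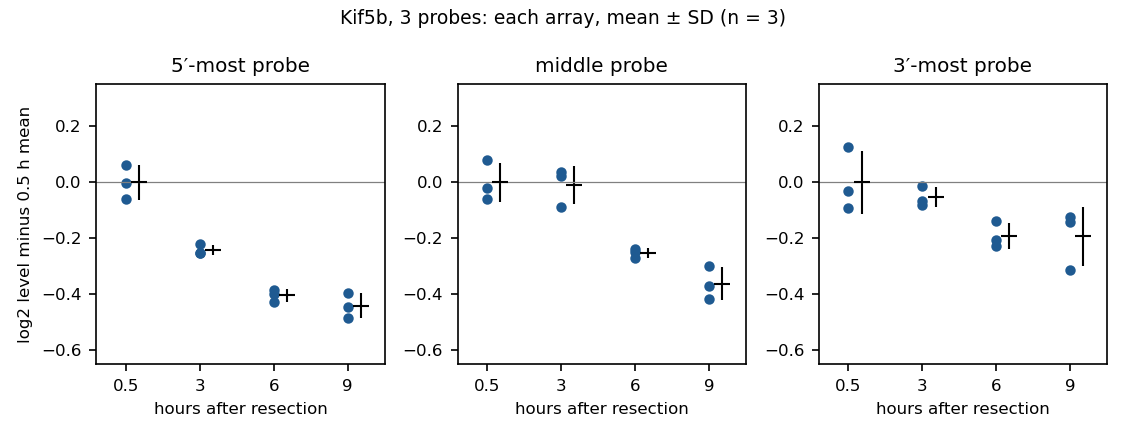
The 3 Kif5b probes on the 12 arrays, as log2 level minus that probe's mean at 0.5 h against hours after resection; dots are arrays, bars the mean ± SD (n = 3). The 5′-most probe is down by 0.24 at 3 h, where the other probes are near 0, and all 3 are below 0 at 6 and 9 h.

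Kif5a, whose mutation causes hereditary motor and sensory nerve disease in humans, stood at -0.32, -0.26 and -0.06 on the 9 h arrays, against -0.45, -0.24 and -0.29 on the 0.5 h arrays. These overlap, and the difference was 0.12 (95% interval -0.18 to 0.41, adjusted p = 0.524). Kif5c stood at -0.81, -0.88 and -0.85 at 9 h, against -0.75, -0.72 and -0.92 at 0.5 h, with a difference of -0.05 (95% interval -0.48 to 0.38). At 6 h Kif5c was at -1.31, -1.05 and -1.58, below all 0.5 h arrays, but the spread was wide and its difference of -0.51 was not called (adjusted p = 0.107). At 9 h the interval of Kif5c takes in a fall as large as that of Kif5b, while that of Kif5a does not.

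Every kinesin light chain that was called was higher at the later time. Of the 4, which hold the heavy chains inactive and tie them to cargo, none was called at 3 or 6 h. At 9 h Klc3 and Klc4 rose against 0.5 h, and Klc1, Klc3 and Klc4 rose against 6 h. The genes of Klc3 and Klc4 are related, so the probes were compared. The Klc3 probe lies at chr1:78750189-78750248 and the Klc4 probe at chr9:10003400-10003583, both on the minus strand of rn4. Capitals mark bases identical between the 2 in their best ungapped alignment, 25 of the 51 aligned (49%).
Klc3 probe: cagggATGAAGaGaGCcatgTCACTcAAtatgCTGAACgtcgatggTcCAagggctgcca
Klc4 probe: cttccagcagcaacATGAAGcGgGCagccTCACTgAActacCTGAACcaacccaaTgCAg

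Klc4 stood at 0.50, 0.54 and 0.54 on the 9 h arrays, against -0.05, 0.18 and 0.07 on the 0.5 h arrays. The lowest 9 h array exceeded every array of the other 3 times, where the highest was 0.45 on a 3 h array. Klc4 rose by 0.46 at 9 h against 0.5 h (SE 0.09, 95% interval 0.26 to 0.66, adjusted p = 0.00377), a ratio of 1.37. That call was made whichever array was left out. Its rise of 0.30 over 6 h (adjusted p = 0.0303) was not made without 6 h replicate 2 or 3 or without any 1 of the 9 h arrays (adjusted p 0.0537 to 0.101).

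Klc3, first known from testis and also present in neurons, stood at -2.09, -2.12 and -2.18 at 9 h, against -2.69, -2.42 and -2.32 at 0.5 h. The groups did not overlap, and it was up by 0.34 (SE 0.11, adjusted p = 0.036). It was no longer called once 0.5 h replicate 1 or 2 or any 1 of the 9 h arrays was left out (adjusted p 0.0586 to 0.109), and under quantile, median or cyclic loess scaling (0.105 to 0.187). Against 6 h it rose by 0.37 (adjusted p = 0.032), and here a second Klc3 probe, nearer the 5′ end, also rose, by 0.56 (adjusted p = 0.0369). Against 0.5 h that probe gave 0.22 (adjusted p = 0.351). The call against 6 h was lost without 6 h replicate 2 or 3 or any 1 of the 9 h arrays (adjusted p 0.0554 to 0.111) and with quantile (0.204) or cyclic loess (0.146) scaling. Klc1, the neuronal light chain, stood at 6.52, 6.65 and 6.46 at 9 h, against 6.26, 6.31 and 6.28 at 6 h, up by 0.26 (adjusted p = 0.0296). Leaving out any 1 of the 6 h arrays or 9 h replicate 1 or 2 ended the Klc1 call (adjusted p 0.0513 to 0.0994), as did quantile (0.0661) and cyclic loess (0.0852) scaling. Its second probe gave 0.25 (adjusted p = 0.146), and the mean of both had an adjusted p of 0.0542. Klc2 differed by -0.12 at 9 h against 0.5 h and was never called.

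These light chain rises from 6 to 9 h took place where the median of all genes was above 0 too. With 75th percentile scaling the median difference of all genes between 9 h and 6 h was 0.11. With each array scaled to its median, the median of all genes was -0.10. That scaling called 22 motor genes between 6 and 9 h, with 20 lower and 2 higher at 9 h in place of 2 lower and 6 higher. Quantile and cyclic loess scaling each gave 3 higher and 7 lower. The 9 h calls of Klc1, Klc3 and Klc4 against 6 h were not made under median scaling (adjusted p 0.343 to 0.627), though each still had a positive sign. Set against 0.5 h, the 9 h split was 4 higher and 4 lower, but 2 and 5 with quantile, 3 and 8 with median and 3 and 5 with cyclic loess scaling. At 3 h it was 2 higher and 3 lower, and 5 higher and 2 lower with median scaling. The 6 h split was 2 and 2, and 4 higher and 1 lower with median scaling.

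Kinesin-2 drives transport in cilia and of some axonal cargo, and its 3 measured chains, Kif3a, Kif3b and Kif3c, were called in no comparison on their brightest probes. Kif3a stood at 2.11, 2.00 and 2.01 at 9 h, against 2.02, 2.16 and 2.05 at 0.5 h, with a difference of -0.03 (95% interval -0.18 to 0.11). Across the 5 comparisons the brightest probes of the 3 genes stayed between -0.14 and 0.16, but a second Kif3b probe fell by 0.44 at 6 h against 0.5 h (adjusted p = 0.047). Of the 4 measured kinesin-3 genes, relatives of the vesicle motor Kif1a, Kif16b, a motor of early endosomes, was called at 3 h. It stood at -0.62, -0.72 and -0.57 at 3 h, against -0.93, -0.96 and -0.91 at 0.5 h, and rose by 0.30 (SE 0.07, adjusted p = 0.0168). Among the other arrays only 9 h replicate 3, at -0.69, reached the 3 h range. Its second probe gave 0.01 at 3 h (adjusted p = 0.938), and leaving out 0.5 h replicate 2 or 3 h replicate 1 or 3 ended the call (adjusted p 0.0522 to 0.0535). The brightest probes of Kif1b, Kif1c and Kif13a stayed between -0.20 and 0.21 in the 5 comparisons, with none called. Other probes differed. Kif13a, a motor of endosome transport, fell on a second probe by 0.44 at 3 h (adjusted p = 0.0106) and by 0.42 at 9 h (adjusted p = 0.00917), while the remaining one, not above background at 0.5 h, rose by 0.70 at 9 h against 6 h (adjusted p = 0.0114). A second Kif1b probe rose by 0.38 at 9 h against 0.5 h (adjusted p = 0.0369).

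Kif27, a kinesin-4 of motile cilia, was the only motor gene called on its brightest probe between 3 and 6 h. Its 2 probes disagree. Both lie on the plus strand of chromosome 17 in rn4. The brighter, 3′ probe is at chr17:12294180-12294239 and the dimmer, 5′ probe at chr17:12240507-12240566. They are shown because the result turns on which is read.
Kif27 3′ probe: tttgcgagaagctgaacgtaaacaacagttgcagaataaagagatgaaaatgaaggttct
Kif27 5′ probe: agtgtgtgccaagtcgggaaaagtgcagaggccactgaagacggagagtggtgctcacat

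On the 3′ probe Kif27 stood at -4.17, -4.18 and -3.94 at 3 h, against -3.54, -3.68 and -3.74 at 0.5 h. The 3 h arrays are the lowest 3 of the 12. It fell by 0.44 at 3 h (SE 0.08, adjusted p = 0.0046). At 6 h it stood at -3.65, -3.55 and -3.54, and it rose by 0.52 against 3 h (SE 0.08, adjusted p = 0.00334). Both calls held whichever array was left out. On the 5′ probe the 3 h arrays read -5.87, -5.88 and -5.70, against -6.03, -6.37 and -6.59 at 0.5 h, all higher, with a difference of 0.51 (adjusted p = 0.0736). That probe did not clear background at 0.5 h. Between 3 and 6 h it differed by -0.01. The mean of both probes gave 0.034 at 3 h, with an adjusted p of 0.865.

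Of the other kinesin-4 genes, Kif7, a regulator of Hedgehog signalling at the tip of the primary cilium, stood at 0.09, 0.23 and 0.14 at 3 h, against 0.37, 0.28 and 0.49 at 0.5 h. It fell by 0.23 (SE 0.07, adjusted p = 0.0342), the smallest of the differences called against 0.5 h. Leaving out 0.5 h replicate 1 or 3, 3 h replicate 1 or 3 or 6 h replicate 2 or 3 ended the call (adjusted p 0.05 to 0.116), and the second Kif7 probe gave -0.09. Kif21a, which binds at growth cones and the cell cortex, passed the F test but was called in none of the comparisons made. It was highest at 3 h, at -0.18, -0.18 and -0.31, and lowest at 9 h, where the values were -0.88, -0.72 and -0.61. At 0.5 h it stood at -0.58, -0.41 and -0.56. The means at 3 h and 9 h lay 0.515 apart, but 9 h was not tested against 3 h. Kif21b varied widely, and its largest difference, 0.86 at 9 h against 6 h, was not called (SE 0.40, adjusted p = 0.145).

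Of the remaining kinesins with roles outside mitosis, Kif19a and Kif6 moved most on their brightest probes, and in opposite directions. The brightest probe of Kifc3 was not called (0.42 at 9 h against 6 h, adjusted p = 0.0656). A second Kifc3 probe, above background on all 12 arrays, rose by 1.00 at 9 h against 6 h (adjusted p = 0.00631). Against 0.5 h that probe rose by 0.64 at 9 h (adjusted p = 0.0399). Kif19a, which shortens microtubules at the tips of motile cilia in mice, stood at -1.95, -1.79 and -2.19 at 9 h, against -1.02, -1.02 and -1.29 at 0.5 h. The 9 h arrays are the lowest 3 of the 12. It fell by 0.86 against 0.5 h (SE 0.17, adjusted p = 0.00418) and by 0.78 against 6 h (adjusted p = 0.00737). The symbol Kif19a was not found in the current gene table, so the name is that of the array.

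Kif6, a kinesin of the ciliated lining of the brain ventricles in mice, stood at -5.55, -5.39 and -5.16 at 9 h, against -6.97, -7.13 and -6.83 at 6 h. It read 1.61 higher than at 6 h (SE 0.17, adjusted p = 0.000101), a ratio of 3.05. Only 2 of the 3 arrays at 6 h cleared background, so that ratio is uncertain. The Kif6 probe passed the filter only through the 9 h arrays, where all 3 cleared background. Its calls at 9 h are therefore not independent of that filter. At 0.5 h none of the arrays had Kif6 clear of background, and it read -6.91, -6.46 and -6.57. The detection floor of those arrays lies above the 9 h level, so the call at 9 h against 0.5 h rests on signals below it and gives no size. The calls of Kif19a and Kif6 were made whichever array was left out, with the choice of probes unchanged. Kif26b, which lacks the ATPase activity of other kinesins, rose by 0.38 at 9 h against 6 h (adjusted p = 0.0288). The other 3 scalings ended that call (adjusted p 0.182 to 0.431), as did leaving out 6 h replicate 2 or 3 or 9 h replicate 2 or 3 (0.0505 to 0.111).

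**Figure D4:**
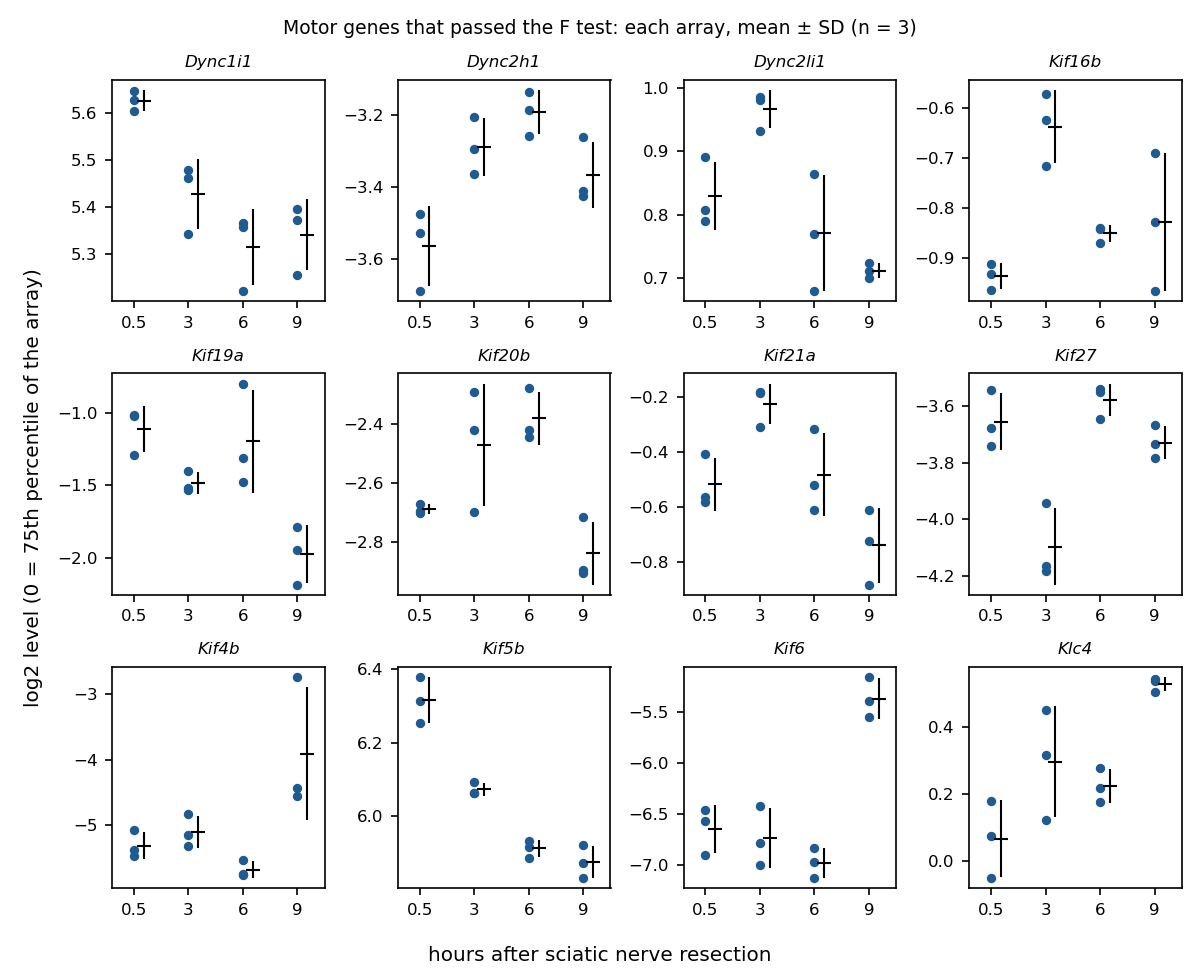
Log2 level of the 12 motor genes that passed the F test against hours after resection; dots are arrays and bars the mean ± SD (n = 3), each panel with its own scale. Kif5b and Dync1i1 are highest at 0.5 h, Kif27 is lowest at 3 h, Klc4 and Kif6 are highest and Kif19a lowest at 9 h, and 1 array sets Kif4b apart at 9 h.

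Mitotic kinesins build and drive the spindle. Of 14 listed, 11 were measured. On their brightest probes 0 were called at 3 h against 0.5 h, 1 higher at 6 h, 1 higher at 9 h, and 1 higher and 1 lower between 6 and 9 h. A second Kif18a probe rose against 0.5 h by 0.95 at 3 h (adjusted p = 0.00419) and by 0.82 at 6 h (adjusted p = 0.0151). That probe was not above background at 0.5 h, where the detection floor lies above its 3 and 6 h levels, so these calls give no size. Kif20a, a motor of cell division's last step, stood at -0.32, -0.16 and 0.00 at 6 h, against -0.46, -0.61 and -0.67 at 0.5 h, and rose by 0.42 (SE 0.11, adjusted p = 0.0345). The call was not made without 0.5 h replicate 2 or 3 or 6 h replicate 2 or 3 (adjusted p 0.0814 to 0.116). Kif20b, which acts at the same step, stood at -2.71, -2.91 and -2.89 at 9 h, against -2.42, -2.44 and -2.28 at 6 h. It fell by 0.46 (SE 0.10, adjusted p = 0.00839), whichever array was left out.

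The 6 h values of this group lean on 1 array. For 10 of the 11 mitotic kinesins 6 h replicate 3 was the highest of the 6 h arrays, and for 9 of them the highest of all 12. Kif11, the spindle motor that pushes poles apart, read -3.29 there, against -3.82 and -3.92 on the other 6 h arrays. On the same array the 16 measured markers of dividing cells were on average 0.56 above their mean over the arrays, against 0.04 and 0.19 on the other 6 h arrays. The 8 neutrophil markers were 1.96 above, where the other 6 h arrays were at -0.25 and -0.32, and the 3 measured red cell markers 1.05 above. Their part in the mitotic kinesin levels was not tested. Without that array 3 motor genes in place of 4 were called between 0.5 and 6 h, and 4 in place of 8 between 6 and 9 h.

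Kif4b, a chromosome-arm kinesin that in humans is a near copy of another gene, was higher at 9 h, where it read -4.55, -4.43 and -2.74, against -5.76, -5.52 and -5.74 at 6 h. The groups do not overlap, but 9 h replicate 3 stands far above the other arrays. It rose by 1.77 against 6 h (SE 0.40, adjusted p = 0.00885), or by 1.18 without 9 h replicate 3 (adjusted p = 0.000925). At 0.5 h no array had Kif4b clear of background. With each 0.5 h array set no lower than its lowest probe signal above background, the rise to 9 h was 1.91-fold. It was 1.28-fold without 9 h replicate 3. The limma calls had adjusted p = 0.023 and 0.00751. These folds are not strict lower bounds, since a signal above that limit could still fail to clear background. Kif4, at -4.05, -4.30 and -4.40 at 0.5 h, cleared it on only 2 of the 3 arrays. The measured means were -3.91 ± 1.01 at 9 h and -5.31 ± 0.21 at 0.5 h (SD, n = 3 each), and without 9 h replicate 3 that difference was 0.82 in place of 1.40. Leaving out 0.5 h replicate 1 or 3 ended this call (adjusted p 0.0636 and 0.0608), as did quantile (0.0739) and cyclic loess (0.0516) scaling.

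In the dynein-1 motor, the heavy chain Dync1h1 carries the ATPase ring and the intermediate chains dock dynactin and cargo. Dync1i1, the intermediate chain found mainly in neurons, fell. It stood at 5.60, 5.63 and 5.65 at 0.5 h, 5.48, 5.46 and 5.34 at 3 h, 5.37, 5.22 and 5.36 at 6 h, and 5.37, 5.26 and 5.40 at 9 h. All 9 later arrays lie below the 3 at 0.5 h. The 3 h difference of -0.20 was not called. The level fell by 0.31 at 6 h (SE 0.07, adjusted p = 0.0147) and by 0.28 at 9 h (SE 0.07, adjusted p = 0.00918), both against 0.5 h. The 9 h call was made whichever array was left out. Leaving out 6 h replicate 2 ended the 6 h call (adjusted p = 0.0504), as did median scaling (0.101).

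Dync1h1 itself stood at 6.12, 6.04 and 6.06 at 9 h, against 5.86, 6.05 and 6.00 at 0.5 h, a difference of 0.11 (95% interval -0.06 to 0.28). The ubiquitous intermediate chain Dync1i2 stayed between -0.08 and 0.05 in the 5 comparisons. Dync1li1, a light intermediate chain that links dynein to adaptors, stood at -1.99, -2.21 and -2.21 at 9 h, against -2.03, -1.85 and -1.71 at 0.5 h. The lowest 0.5 h array lies below the highest 9 h array, so the groups overlap. It fell by 0.27 (SE 0.09, adjusted p = 0.0405), and leaving out 0.5 h replicate 2 or 3, 3 h replicate 1, any 1 of the 6 h arrays or 9 h replicate 2 or 3 ended the call (adjusted p 0.0546 to 0.134). Its relative Dync1li2 was never called.

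The 6 measured dynein light chains, which join the dynein tail, were called in no comparison on their brightest probes, which stayed between -0.26 and 0.22. A second probe of Dynlt3 fell by 0.34 at 9 h against 0.5 h (adjusted p = 0.0118) and by 0.31 against 6 h (adjusted p = 0.0203), where the brightest gave -0.26 and -0.23. The 6 dynactin subunits were all measured and none was called on its brightest probe. Dctn1, the subunit p150 Glued that grips the microtubule and in humans is mutated in a motor neuron disease, stood at 3.51, 3.63 and 3.61 at 9 h, against 3.16, 3.35 and 3.25 at 0.5 h. The groups did not overlap, yet the difference of 0.33 (95% interval 0.06 to 0.61) had an adjusted p of 0.0641. The brightest probes of Dctn2 to Dctn6 stayed between -0.16 and 0.23. The probes of Dctn3 disagree: a second one, above background on all 12 arrays, rose by 0.44 at 3 h (adjusted p = 0.00354) and by 0.26 at 9 h (adjusted p = 0.0277) against 0.5 h, where the brightest gave -0.01 and -0.05.

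Dync2h1, the heavy chain of dynein-2, the return motor of cilia, was the dynein gene that rose. It stood at -3.48, -3.53 and -3.69 at 0.5 h, -3.30, -3.36 and -3.21 at 3 h, -3.19, -3.14 and -3.26 at 6 h, and -3.43, -3.41 and -3.26 at 9 h. Every later array lies above the 0.5 h arrays. It rose by 0.27 at 3 h (SE 0.08, adjusted p = 0.0305) and by 0.37 at 6 h (SE 0.08, adjusted p = 0.014), and its 9 h difference of 0.20 was not called. The 6 h call was made whichever array was left out. The 3 h call was lost when 0.5 h replicate 2 or 3 or 3 h replicate 1 or 3 was left out (adjusted p 0.0576 to 0.0984). Dync2li1, its light intermediate chain, passed the F test but was called in none of the comparisons made. The 3 h arrays of Dync2li1, at 0.93 to 0.99, were the highest of the 12. Its mean was lowest at 9 h, 0.256 below that at 3 h, but 9 h was not tested against 3 h.

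**Figure D5:**
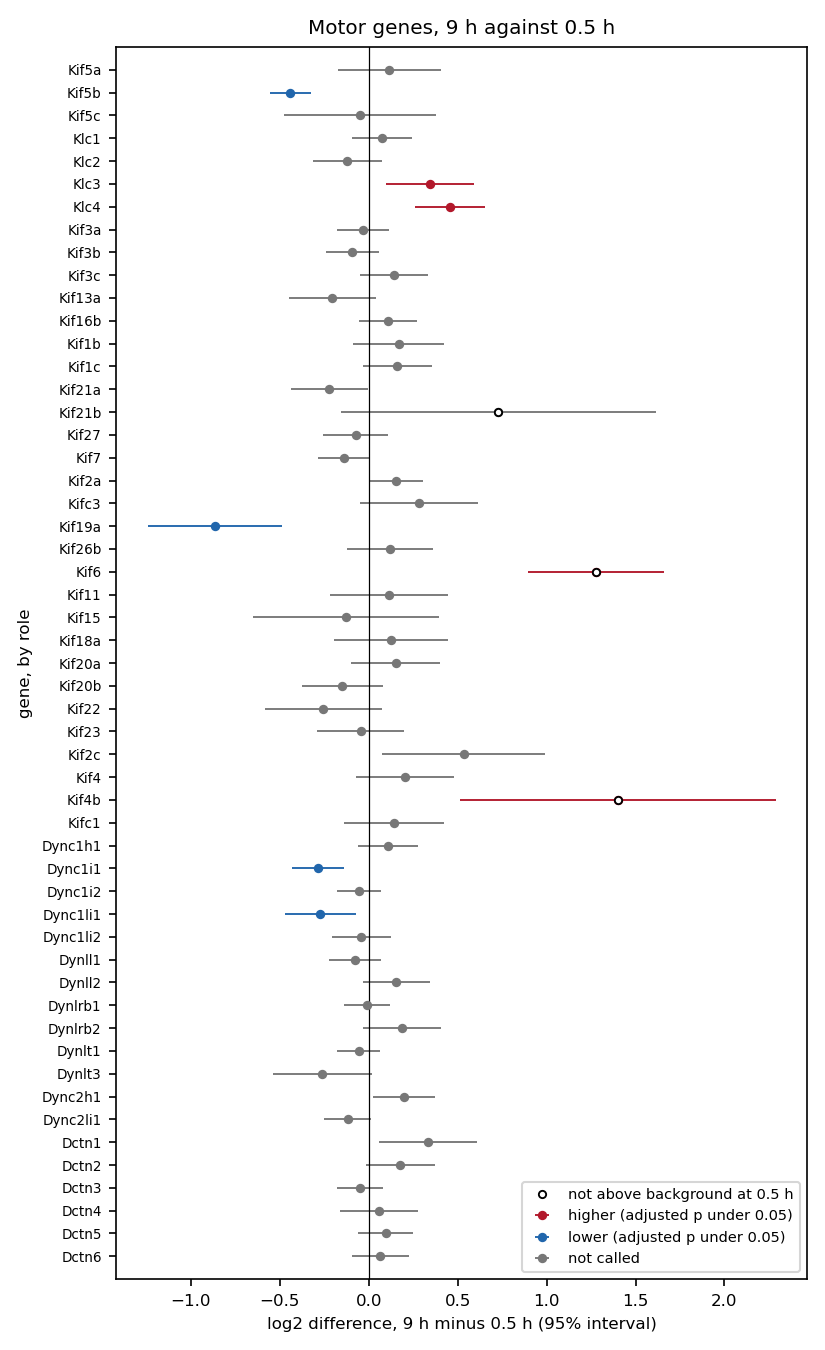
Difference between 9 h and 0.5 h for the 53 motor genes, as log2 units with 95% intervals from the limma fit, ordered by role from kinesin-1 to dynactin. Called genes are coloured: Klc3, Klc4, Kif6 and Kif4b are higher and Kif5b, Kif19a, Dync1i1 and Dync1li1 lower, while most other intervals include 0. Open points mark Kif6, Kif4b and Kif21b, which were not above background at 0.5 h.

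Proteins that connect these motors to cargo or regulate them were followed in a list of 55 genes, of which 47 were measured. Against 0.5 h, 5 were higher and 2 lower at 3 h (14.9%, against 22.7% of all genes), 2 and 4 at 6 h (12.8%, against 13.4%) and 5 and 7 at 9 h (25.5%, against 33.4%). The counts between 3 and 6 h were 1 higher and 2 lower (6.38%, against 10.4%), and between 6 and 9 h 4 and 4 (17%, against 25.1%). The largest difference against 0.5 h was that of Mapk8ip3, the scaffold JIP3 that links kinesin-1 and dynein to the stress kinase JNK. Mapk8ip3 fell by 0.84 at 3 h (adjusted p = 0.003), by 0.50 at 6 h (adjusted p = 0.046) and by 0.87 at 9 h (adjusted p = 0.00158). The 6 h call was made in 4 of 12 fits that left out 1 array, and was lost without any 1 of the 0.5 or 6 h arrays, without 3 h replicate 1 or 9 h replicate 3, and with quantile or median scaling (adjusted p 0.0523 to 0.13). Its levels were 0.65 ± 0.27 at 9 h and 1.52 ± 0.05 at 0.5 h (SD, n = 3 each).

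Rab7a, the late endosome GTPase that recruits dynein, fell by 0.43 at 3 h against 0.5 h and rose by 0.48 at 6 h relative to 3 h. It was also called at 9 h, against both 0.5 h and 6 h, whichever array was left out. Its sizes at 9 h are not given here. Ppfia3, a liprin that binds the motor Kif1a, rose by 0.59 at 3 h and by 0.55 at 9 h against 0.5 h. Of 12 fits that left out 1 array, 5 made the Ppfia3 call at 3 h and 4 that at 9 h. Neither was made with the mean of its probes or with the replicate block. Rhot1, the mitochondrial motor anchor Miro1, rose by 0.32 at 3 h. Nde1, a dynein regulator, rose by 0.33 at 6 h, while Actr1b of the dynactin filament fell by 0.35 and Mapk8ip1, the scaffold JIP1, by 0.22. In 12 fits that left out 1 array, the 6 h calls of Nde1 and Actr1b were made in 8 and that of Mapk8ip1 in 7. Median scaling and the mean of probes ended the calls of Actr1b and Mapk8ip1. Quantile scaling and the replicate block also ended that of Mapk8ip1. By 9 h Clstn1, a membrane cargo receptor of kinesin-1, rose by 0.58 and Rilp, which joins Rab7 to dynein, by 0.55. The Clstn1 call was made in 8 of the 12 fits that left out 1 array and that of Rilp in all 12.

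Relative to 3 h, Bicd1, a dynein adaptor, fell by 0.33 at 6 h and Tmem108, a neuronal membrane protein, by 0.28. The Bicd1 call was made in 6 of 12 fits that left out 1 array and that of Tmem108 in 7, and neither with median scaling. Relative to 6 h, Capza1, which caps the dynactin filament, fell by 0.87 at 9 h (by 0.54 without 9 h replicate 2), and Madd, Hap1 and Rilp rose by 0.42, 0.41 and 0.40. Of the 8 measured of 13 tubulin genes listed, which encode the track itself, none was called in the first 4 comparisons. Between 6 and 9 h 1 was called, Tuba4a, up by 0.21 (adjusted p = 0.0468), which is named here after its value was seen. Median scaling turned its sign (-0.000862). Of the 37 adaptor and tubulin calls, 2 were made with normexp correction, those of Mapk8ip3 at 3 and 9 h, which were not made with the mean of its probes (adjusted p 0.0793 and 0.159). Median scaling kept 23, the mean of all kept probes 24, and leaving out 1 array kept 18 to 33. Tubulin differences lay between -0.35 and 0.34.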

How the data were processed

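The authors deposited 1-colour intensity values per spot from 12 arrays, already background-subtracted by Agilent Feature Extraction 10.5.1.1 per the file headers; their combined file holds the same intensities (largest difference 0). Control spots (1639 of 45018) and outlier spots (76 to 218 per array) were left out, and no spot was saturated. Signals were taken as log2 minus each array's 75th percentile, which was 1814 to 2152. Spots of a probe were averaged, probes that cleared background on each array of some time were kept (34837 of 41012), and each gene was read from its brightest kept probe. Motor genes had 75 kept probes, and 19 had several. Group means were fitted over all 29623 genes with limma 3.58.1 (lmFit, eBayes; R 4.3.3, data.table version 1.17.8), with Benjamini-Hochberg adjustment per comparison. An adjusted p under 0.05 was called. For Kif4b, dim at 0.5 h, the fold was taken with each 0.5 h array set no lower than its lowest probe signal above background. Only 3 arrays per time limit the precision.

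The members, lists and tests were chosen with earlier results of these data known. Values are given for every called motor gene, for kinesin-1, Kif3a, Dync1h1 and Dctn1 whatever their result, and per comparison for at most 4 called adaptor or tubulin genes. Gene names are those of the array: in the current RefSeq table (GRCr8) 63 of 81 motor gene probes matched by accession, 16 by symbol and 2 not. Coordinates are the files' (rn4). Steps were tested on simulated data. Alternatives were normexp correction (offset 50), 3 other scalings, other probe filters and rules, another variance model, replicate or slide as a block, and leaving out each array. No pairing of the samples by replicate number was seen, as given in the closing section.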

Additional observations from a re-analysis of the deposited data

How the results depend on the processing

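Counts of motor genes called in the 6 tests (3, 6 and 9 h against 0.5 h, 6 h against 3 h, 9 h against 6 h, and the F test) were 5, 4, 8, 1, 8 and 12. Leaving out 1 array gave 2 to 8, 2 to 6, 6 to 9, 1 to 2, 4 to 12 and 10 to 16. With normexp correction they were 1, 0, 0, 0, 0 and 0, in limma fits that called 685, 1, 425, 318, 163 and 678 of all genes. With slide as a random block (correlation -0.255) they were 23, 16, 25, 8, 21 and 38; since most slides hold 1 time, this does not part slide from time. Median scaling gave 22 at 9 h against 6 h and 21 in the F test. At 3 h against 0.5 h the other counts that moved by over 1.5 times were 8 with quantile scaling, 8 with cyclic loess, 8 with probes above background on all 12 arrays, 10 with no filter, 3 with the mean of all kept probes, and 2 with only the 2 times compared. At 6 h against 0.5 h no filter gave 8. At 6 h against 3 h quantile scaling gave 2, the stricter filter 2, the mean of probes 0, and trended robust eBayes 3. The cause of these changes was not tested.

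At 3 h the count was 3 once 0.5 h replicate 3 was left out, 2 with 3 h replicate 1 left out and 8 with 3 h replicate 2 left out. At 6 h against 0.5 h it was 2 without 6 h replicate 2. At 9 h against 6 h it was 4 without 6 h replicate 2 or 3 or 9 h replicate 2, 5 with 9 h replicate 3 left out, and 12 with 3 h replicate 3 left out.

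For the 26 calls of single genes and up to 23 settings, 476 of 594 values kept the call, 117 lost it and 1 reversed, that of Kif27 at 3 h with the mean of its probes (0.034). Deviations from the group means correlated by r -0.13 to 0.22 between arrays with the same replicate number. Between arrays of different number and time r was -0.23 to 0.20. No pairing by number was seen, but with 3 arrays per time these ranges cannot show its absence. With the replicate block the counts were 3, 3, 7, 1, 4 and 10, and 17 of the 26 calls were made.

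The higher background at 0.5 h limits what can be said of dim genes there, such as Kif4b and Kif6.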
